A study of Homo sapiens with 6 samples.

Results

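Genes of glucose uptake, glycolytic control and lactate handling were followed in PC-3 prostate cancer cells, 10 in all: the glucose transporters SLC2A1 and SLC2A3, the hexokinases HK1 and HK2, the phosphofructokinase-step genes PFKP, PFKFB2 and PFKFB3, the lactate dehydrogenase genes LDHA and LDHB, and the lactate transporter SLC16A1. The 10 genes were named for their place in the pathway and were matched by symbol among the 22934 gene symbols of the deposited table. HK2 and LDHA each had a second locus, and of these the one with more RefSeq names, or else the higher summed expression, was taken.

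The study compared 3 samples of PC-3 cells carrying tdTom with 3 samples carrying TTP-tdTom. PC-3 is an established line derived from a bone metastasis of a prostate adenocarcinoma. Both groups carried the rtTA2 Tet-On transactivator after G418 selection, were then infected with a pRetroX-Tight retrovirus, were sorted by flow cytometry, and were grown in 300 ng/ml doxycycline (Dox) for 4 hours before RNA was taken. In both, tdTomato was driven by the PGK promoter, and in the second group the Dox-dependent Tight promoter also drove TTP. The infected cells were used as sorted populations, and the sources used here do not say whether the 3 samples of a group came from separate cultures.

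The table holds 1 value per group and locus, in FPKM, which are fragments counted per unit of transcript length and per unit of library size, so levels of different genes can be compared per length. No value of a single sample was analysed here. These values carry no spread between replicates, and the groups were compared without a test. The table also holds the authors' own test of each locus, which was not used here, so the ratios below are given without a replicate check. The number of fragments behind a value cannot be read from FPKM; the labels give a target for read pairs per sample, not what was obtained, so the depth reached is unknown and neighbouring levels cannot be separated by their error. Ratios are given as log2 of TTP-tdTom over tdTom. A gene counts as expressed at a mean FPKM of at least 1 with a value above 0 in both groups, and as lower or higher when the groups differ by at least 1.5-fold, which is 0.58 on the log2 scale.

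Glucose enters cells through the SLC2A (GLUT) carriers, is trapped by hexokinase as glucose 6-phosphate, and is committed to glycolysis by 6-phosphofructo-1-kinase, whose activator fructose 2,6-bisphosphate is made and removed by the PFKFB enzymes. Lactate dehydrogenase interconverts pyruvate and lactate, and monocarboxylate transporters carry lactate across the plasma membrane with a proton. Tumour cells commonly use much glucose and release lactate even when oxygen is present. TTP, encoded by ZFP36, is a zinc finger protein that binds AU-rich elements in the 3′UTR of mRNAs and recruits enzymes that shorten the poly(A) tail.

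The labels and the cell type were checked first. ZFP36 (chr19:39897487-39900052, GRCh37) was at 5.56 FPKM in the tdTom group and 5.54 FPKM in the TTP-tdTom group, so that the ZFP36 level was the same in the group labelled TTP-tdTom. Whether transgene fragments were counted there was not analysed here, so these 2 values cannot show whether the TTP transgene was expressed. The directions below are those of the group labelled TTP-tdTom. Of 5 epithelial markers, 4 were expressed in the table, among them KRT18 at 98.2 and 91.5 FPKM in tdTom and TTP-tdTom, whereas CDH1, which encodes E-cadherin, lay at 0.119 and 0.390 FPKM. Of 4 leukocyte and 3 endothelial markers, 0 were expressed, and of 3 fibroblast markers only COL1A1 was, at 4.34 and 4.56 FPKM. Over all 12512 expressed gene symbols the median log2 ratio was -0.24, and 79.9% had a ratio below 0. These are bulk samples, in which fewer cells making a transcript and less of it per cell cannot be told apart.

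Since TTP binds AU-rich elements, the 3′UTRs of the 10 genes were searched for the heptamer TATTTAT (in DNA letters) on the transcript strand only. Of the 10 genes, 5 held a copy in their longest annotated 3′UTR: SLC2A1, SLC2A3, HK1, HK2 and PFKFB3. The heptamer stood in the longest 3′UTR of 36.2% of 11481 expressed genes with one. SLC2A3, which is among the 5, did not pass the expression filter, so shares over the 11481 genes do not cover it. The sites are printed because they show which of the 10 transcripts carry the element and what surrounds it. Each is given 5′ to 3′ with the heptamer in capitals, and in PFKFB3 the capitals mark 2 overlapping copies. Each site lies in the last exon.
SLC2A1: agatgcaagaTATTTATatatattttt
SLC2A3, first site: acttgagtttTATTTATtttatcctct
SLC2A3, second site: atgatggaaaTATTTATttttttaagc
HK1: ccaacagagtTATTTATtggctggaga
HK2, first site: gtacgtaatgTATTTATatgttaattt
HK2, second site: ggtttttgtaTATTTATcaaacttgtg
PFKFB3: cagatgtgcTATTTATTTATttaatatgt

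These sequences are from GRCh38 with the GENCODE release 29 annotation, whereas the loci of the table are on GRCh37, so the coordinates are not compared. The SLC2A1 site is at chr1:42926275-42926301 on the minus strand, in exon 10 of 10. The SLC2A3 sites are at chr12:7920928-7920954 and chr12:7920811-7920837 on the minus strand, in exon 10 of 10. The HK1 site is at chr10:69401432-69401458 on the plus strand, in exon 21 of 21. The HK2 sites are at chr2:74891802-74891828 and chr2:74892689-74892715 on the plus strand, in exon 18 of 18. The PFKFB3 site is at chr10:6235284-6235312 on the plus strand, in exon 16 of 16. The longer nonamer TTATTTATT, which contains the heptamer, occurred in SLC2A3 at its first site, in HK1 and in PFKFB3, and in 9.46% of the 11481 genes.

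The heptamer was not in every transcript of these genes. It stood in the 3′UTR of 1 of 3 annotated SLC2A1 transcripts, 5 of 6 HK1 transcripts, 2 of 2 HK2 transcripts and 3 of 10 PFKFB3 transcripts. PFKFB2 had no copy in its longest 3′UTR of 5452 bases, but 1 of its 2 transcripts held a copy in another 3′UTR. PFKP, LDHA, LDHB and SLC16A1 had no copy of these letters in any annotated 3′UTR. Their longest 3′UTRs were 223, 1144, 200 and 2044 bases long, beside a median of 1394 bases over all genes.

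The 10 genes spanned a wide range of levels. In tdTom cells the order from the top was LDHB, LDHA, HK1, PFKP, SLC16A1, PFKFB3, HK2, PFKFB2, SLC2A1 and SLC2A3. LDHB exceeded SLC2A3 by 1277-fold in the tdTom group and by 1057-fold in the TTP-tdTom group. The lactate dehydrogenase genes stood at the top, HK1, PFKP and SLC16A1 in the middle, and the inducible hexokinase, the PFKFB regulators and the glucose transporters at the bottom. HK2 and PFKFB3 were lower by at least 1.5-fold in the TTP-tdTom group, and the other expressed genes of the set differed by less. SLC2A3 passed neither the filter on low values nor the 1.5-fold call.

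**Figure D1:**
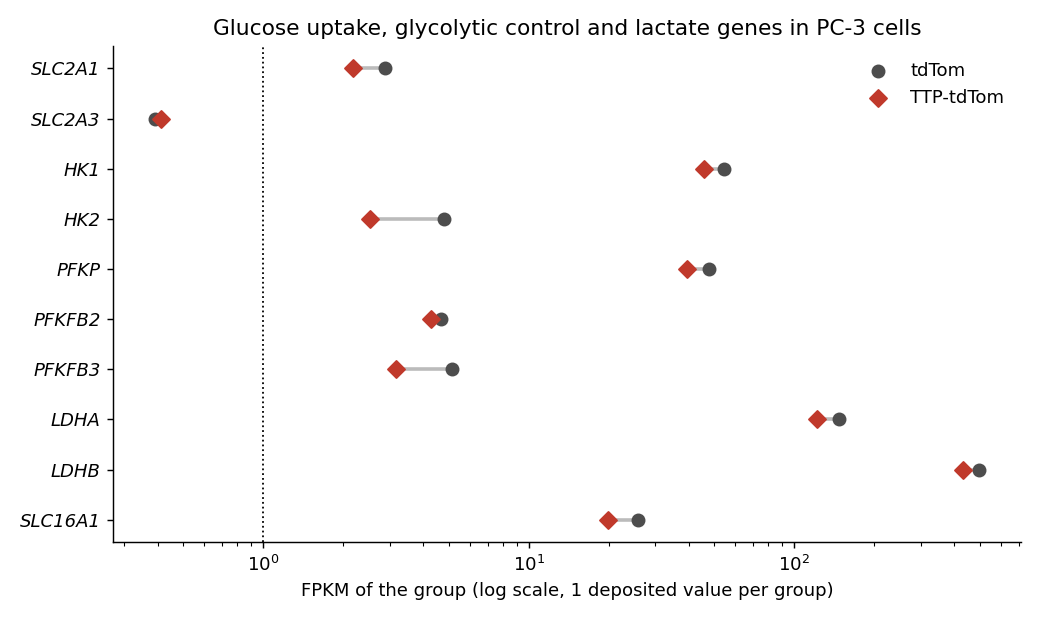
FPKM of the 10 genes in the tdTom group (grey circles) and the TTP-tdTom group (red diamonds), on a log axis, with 1 deposited value per group and no error bars. The dotted line marks an FPKM of 1, below which SLC2A3 lies in both groups, and the longest grey lines are those of HK2 (4.81 and 2.52) and PFKFB3 (5.15 and 3.17).

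SLC2A1 encodes GLUT1, the basal glucose transporter of many cell types. SLC2A1 (chr1:43390756-43449029) was at 2.88 FPKM in the tdTom group and 2.17 FPKM in the TTP-tdTom group, a log2 ratio of -0.41. The TTP-tdTom level was 75.3% of the tdTom level, and SLC2A1 was the gene nearest to the 1.5-fold limit without reaching it. Its ratio lay at the 33.1 percentile of expressed genes, where a low percentile is a larger decrease. The transcript FLJ32224 has the same span in the table.

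SLC2A3 encodes GLUT3, a high-affinity glucose transporter known from neurons. SLC2A3 (chr12:8071824-8088892) was at 0.390 FPKM in the tdTom group and 0.411 FPKM in the TTP-tdTom group, a log2 ratio of 0.07. Of its 3841 stretches of 75 bases, the length of a read, 500 also occurred in transcripts of its close paralog SLC2A14, so that reads may have been divided between these genes. The SLC2A3 level exceeded that of SLC2A14 by 38.4-fold in tdTom and 43.0-fold in TTP-tdTom.

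SLC2A1 was not the highest of the SLC2A carriers in these cells. The 7 carriers summed here were SLC2A1, SLC2A3, SLC2A6, SLC2A8, SLC2A10, SLC2A11 and SLC2A13. SLC2A3 was included although it did not pass the expression filter. SLC2A2, which passed it at 0.845 FPKM in tdTom and 1.18 FPKM in TTP-tdTom, was left out. Of these 7 carriers, SLC2A1 made up 13.6% of the FPKM in tdTom and 11.7% in TTP-tdTom. SLC2A10 made up 23.4% and 17.4%, SLC2A11 made up 20.5% and 21.4%, and SLC2A6 made up 15.6% and 21.5%. The sum over the 7 carriers was 21.3 FPKM in tdTom and 18.6 FPKM in TTP-tdTom, a log2 ratio of -0.20. No single carrier held more than 23.4% of it in either group.

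HK1 encodes the hexokinase found in most tissues, which binds the outer mitochondrial membrane. HK1 (chr10:71029756-71162277) was at 54.4 FPKM in the tdTom group and 45.6 FPKM in the TTP-tdTom group, a log2 ratio of -0.26. This ratio was 0.02 below the median of all expressed genes, at the 48.0 percentile. HK1 held the heptamer and the nonamer in its 749-base 3′UTR.

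HK2 encodes the insulin-responsive hexokinase of muscle and fat, which is high in many tumours. HK2 (chr2:75059782-75120757) was at 4.81 FPKM in the tdTom group and 2.52 FPKM in the TTP-tdTom group, a log2 ratio of -0.93. The TTP-tdTom level was 52.4% of the tdTom level, or 1.91-fold lower. HK2 had the lowest ratio of the 10 genes and lay at the 10.2 percentile of all expressed genes. A second locus with the HK2 symbol and the same span went the other way, with 0.408 FPKM in tdTom and 1.57 FPKM in TTP-tdTom. With both loci added the log2 ratio of HK2 was -0.35. The second locus stood in a pass of the table in which 93.8% were minus-strand genes, whereas HK2 is a plus-strand gene. Its strand is not given, and whether its signal belongs to the HK2 mRNA was not tested. Of the 75-base stretches of HK2, 4.37% also occurred in the pseudogene HK2P1.

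At these main loci HK1 exceeded HK2 by 11.3-fold in tdTom and by 18.1-fold in TTP-tdTom, but with all loci of each symbol added it did so by 10.4-fold and 11.1-fold. The sum over the 5 hexokinase genes was 62.1 FPKM in tdTom and 52.1 FPKM in TTP-tdTom, with a log2 ratio of -0.25. HK1 made up 87.6% of it in tdTom and 87.4% in TTP-tdTom, while HK2 made up 7.75% and 4.84%, or 7.99% and 7.32% with all loci added. HKDC1, a hexokinase-like gene that lies next to HK1, made up 3.10% and 7.47%, or 5.96% and 10.4% with all loci added. The HK1 share was nearly the same in both groups at the main loci. The difference in the HK2 share was small once its second locus, whose strand is not given, was counted.

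PFKP encodes the platelet form of 6-phosphofructo-1-kinase, the enzyme that commits sugar to glycolysis. PFKP (chr10:3109712-3178997) was at 47.9 FPKM in the tdTom group and 39.4 FPKM in the TTP-tdTom group, a log2 ratio of -0.28. It was the leading form, with 63.3% of the summed FPKM of the 3 phosphofructo-1-kinase genes in tdTom and 64.9% in TTP-tdTom. PFKL, the liver form, made up 28.3% and 26.1%, and PFKM, the muscle form, made up 8.36% and 8.93%. The sum was 75.6 FPKM in tdTom and 60.6 FPKM in TTP-tdTom, a log2 ratio of -0.32, with shares that differed by less than 3 points between the groups.

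PFKFB3 encodes the form of the bifunctional enzyme whose kinase activity outweighs its phosphatase activity most strongly, so that it raises fructose 2,6-bisphosphate. PFKFB3 (chr10:6186843-6277507) was at 5.15 FPKM in the tdTom group and 3.17 FPKM in the TTP-tdTom group, a log2 ratio of -0.70. The TTP-tdTom level was 61.5% of the tdTom level, or 1.63-fold lower, at the 17.7 percentile of expressed genes. It was the gene of the set just inside the 1.5-fold limit. Under 4 of the 8 alternatives tried, PFKFB3 did not reach that limit. The microRNA genes MIR3155A and MIR3155B have the same span in the table.

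PFKFB2 encodes the form of the same enzyme known from heart muscle. PFKFB2 (chr1:207216343-207255609) was at 4.66 FPKM in the tdTom group and 4.29 FPKM in the TTP-tdTom group, a log2 ratio of -0.12. It had the smallest decrease of the 9 expressed genes, at the 66.3 percentile. The gene YOD1 has the same span in the table.

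PFKFB3 was therefore 1.11 times the level of PFKFB2 in tdTom and 0.738 times that level in TTP-tdTom, without an error for either ratio. PFKFB3 made up 46.5% of the summed FPKM of the 4 PFKFB genes in tdTom and 35.6% in TTP-tdTom. PFKFB2 made up 42.1% and 48.3%, and PFKFB4 made up 10.7% and 15.7%. The sum was 11.1 FPKM in tdTom and 8.90 FPKM in TTP-tdTom. Among the 5 steps drawn as stacked bars, the PFKFB step had the largest shift of a single share between the groups.

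**Figure D2:**
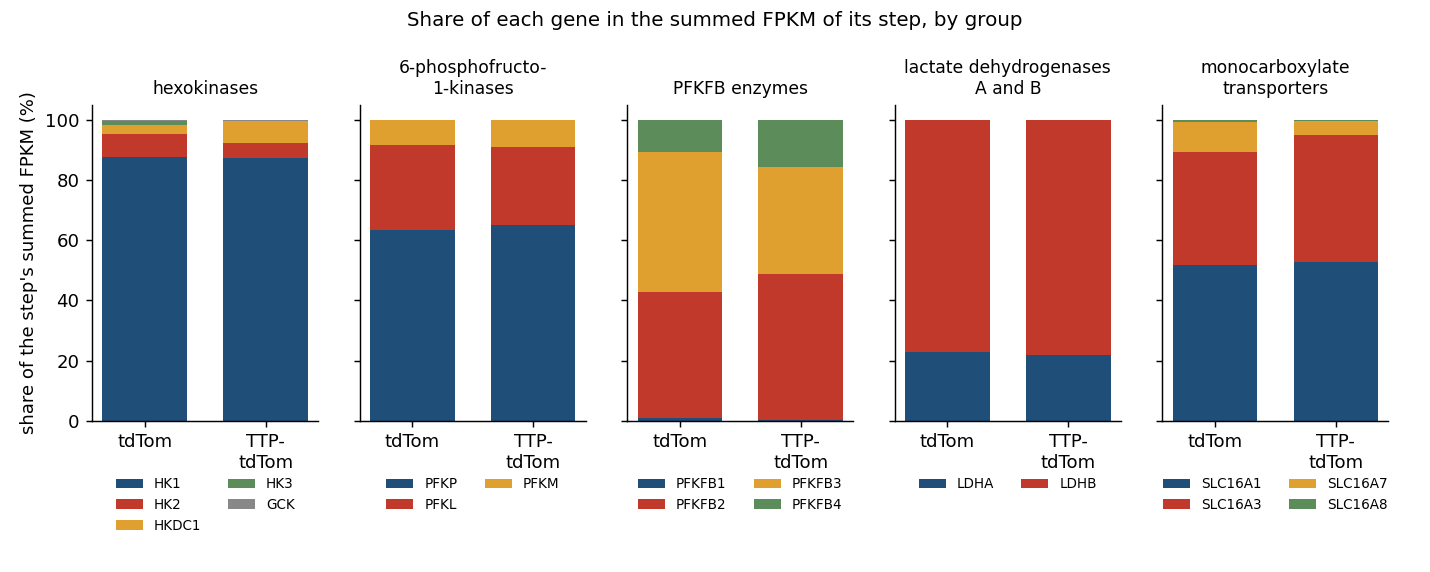
Share of each gene (%) in the summed FPKM of its step, with 1 bar for each group, for the hexokinases, the 6-phosphofructo-1-kinases, the PFKFB enzymes, lactate dehydrogenases A and B and the monocarboxylate transporters. The PFKFB3 segment was 46.5% in tdTom and 35.6% in TTP-tdTom, while the HK1 segment (87.6% and 87.4%) and the LDHB segment (77.3% and 78.1%) were of nearly equal height in both bars.

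LDHA encodes the M subunit of lactate dehydrogenase, which favours the making of lactate. LDHA (chr11:18414652-18429765) was at 147 FPKM in the tdTom group and 122 FPKM in the TTP-tdTom group, a log2 ratio of -0.27, at the 46.8 percentile. A second locus with the LDHA symbol and the same span was at 0.828 and 0.775 FPKM. LDHA shared 3.76% of its 75-base stretches with transcripts of 3 other genes, mostly the pseudogene LDHAP4.

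LDHB encodes the H subunit, which favours the use of lactate. LDHB (chr12:21788275-21810789) was at 498 FPKM in the tdTom group and 434 FPKM in the TTP-tdTom group, a log2 ratio of -0.20, at the 55.3 percentile. It was the most abundant of the 10 transcripts in both groups and exceeded LDHA by 3.40-fold in tdTom and 3.56-fold in TTP-tdTom. Of its 75-base stretches, 54.8% also occurred in the transcript AC010197.2, so its level is uncertain if reads were divided between them. LDHA and LDHB together were at 645 FPKM in tdTom and 556 FPKM in TTP-tdTom, a log2 ratio of -0.21.

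SLC16A1 encodes MCT1, a carrier that moves lactate in either direction. SLC16A1 (chr1:113454470-113498975) was at 25.8 FPKM in the tdTom group and 19.9 FPKM in the TTP-tdTom group, a log2 ratio of -0.37, at the 36.1 percentile. The pseudogene AKR7A2P1 has the same span in the table. SLC16A1 made up 51.7% of the summed FPKM of the 4 lactate-carrying SLC16A genes in tdTom and 52.6% in TTP-tdTom. SLC16A3, the MCT4 exporter, made up 37.6% and 42.5%, and SLC16A7, the high-affinity MCT2 carrier, made up 9.97% and 4.44%. The sum was 49.8 FPKM in tdTom and 37.9 FPKM in TTP-tdTom, a log2 ratio of -0.39, with SLC16A1 as the leading carrier in both groups.

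Of the 9 expressed genes of the set, 2 were lower by at least 1.5-fold, which is 22.2%, and the share over all 12512 expressed gene symbols was 22.7%. None of the 9 was higher by 1.5-fold, and over all expressed gene symbols 2.37% were. Before any rescaling, the median of the 9 was -0.28, beside -0.24 over all genes. All 9 had a ratio below 0, and 7 lay below the median of all genes, with LDHB and PFKFB2 above it by 0.04 and 0.12. After scaling of both groups to the same upper quartile, the ratios of HK2 (-0.54), PFKFB3 (-0.31) and SLC2A1 (-0.02) were below 0 and those of the other 6 were above it, with a median of 0.11. The share of lower genes in the set was thus near that of the table as a whole.

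The same held for much of the pathway around them. In lists of 58 other genes of glucose uptake, glycolysis and lactate, 33 were expressed, of which 7 were lower by at least 1.5-fold (21.2%) and 1 was higher, with a median log2 ratio of -0.29. In lists of 26 genes of pathways that branch from glycolysis, 20 were expressed, of which 5 were lower and 0 were higher, with a median of -0.26.

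The other hexose transporters had a median of -0.09 over 6 expressed genes. SLC2A10, which encodes GLUT10, had the lowest ratio, with 4.98 FPKM in tdTom and 3.23 FPKM in TTP-tdTom (-0.62), and was the 1 transporter past the limit. SLC2A2, which encodes the GLUT2 of liver and pancreatic islets, had the highest, with 0.845 and 1.18 FPKM (0.48).

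Among the other hexose and phosphofructokinases, 6 were expressed with a median of -0.25. PFKL had the lowest ratio, with 21.4 FPKM in tdTom and 15.9 FPKM in TTP-tdTom (-0.43). HKDC1 had the highest, with 1.92 FPKM in tdTom and 3.89 FPKM in TTP-tdTom (1.02), and was the 1 gene of all these lists that was higher by 1.5-fold. With its 5 loci added, HKDC1 was at 3.89 and 5.84 FPKM.

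The other glycolytic enzymes had a median of -0.29 over 12 expressed genes, with 2 lower and 0 higher. ENO2, the enolase typical of neurons, was at 16.3 FPKM in tdTom and 7.53 FPKM in TTP-tdTom (-1.12). BPGM, the red cell enzyme that makes 2,3-bisphosphoglycerate, was at 7.55 and 3.70 FPKM (-1.03). These are the genes of this list that stood apart from its main enzymes. GAPDH, PKM and ALDOA had the highest levels, and none of them reached 1.5-fold. GAPDH was at 2962 FPKM in tdTom and 2425 FPKM in TTP-tdTom (-0.29). PKM, the pyruvate kinase gene, listed as PKM2 in the table, was at 404 and 344 FPKM (-0.23). ALDOA, the main aldolase, was at 338 and 316 FPKM (-0.10), and ALDOC had the highest ratio of the list (0.08, from 5.58 and 5.89 FPKM).

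The other genes of lactate and pyruvate transport had the lowest median of the lists, -0.70 over 6 expressed genes. Of these 6, 3 were lower (50.0%), beside 22.7% of all expressed gene symbols. SLC16A7 and EMB fall in the decile of genes with the lowest GC content, where 63.6% were lower. MPC1 falls in decile 4 of GC content, where 27.1% were lower. SLC16A7 was at 4.96 FPKM in tdTom and 1.68 FPKM in TTP-tdTom (-1.56). EMB, which encodes embigin, a chaperone of monocarboxylate transporters, was at 15.0 and 7.33 FPKM (-1.03). MPC1, a subunit of the mitochondrial pyruvate carrier, was at 5.64 and 2.94 FPKM (-0.94), while MPC2, its partner subunit, was at 12.9 and 9.37 FPKM (-0.47). BSG, which encodes basigin, the chaperone of MCT1 and MCT4, was at 60.7 and 48.8 FPKM (-0.31), and SLC16A3 had the highest ratio of the list, with 18.7 and 16.1 FPKM (-0.22). Beside genes of like GC content, EMB and BSG lay at nearly the same distance from the median, -0.27 and -0.22.

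Of 3 expressed glucose-responsive regulators, 1 was lower. MLX, the partner of the glucose-sensing factors MondoA and ChREBP, was at 8.18 FPKM in tdTom and 5.42 FPKM in TTP-tdTom (-0.59). MLXIP, which encodes MondoA, had the highest ratio, with 9.60 and 9.07 FPKM (-0.08).

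**Figure D3:**
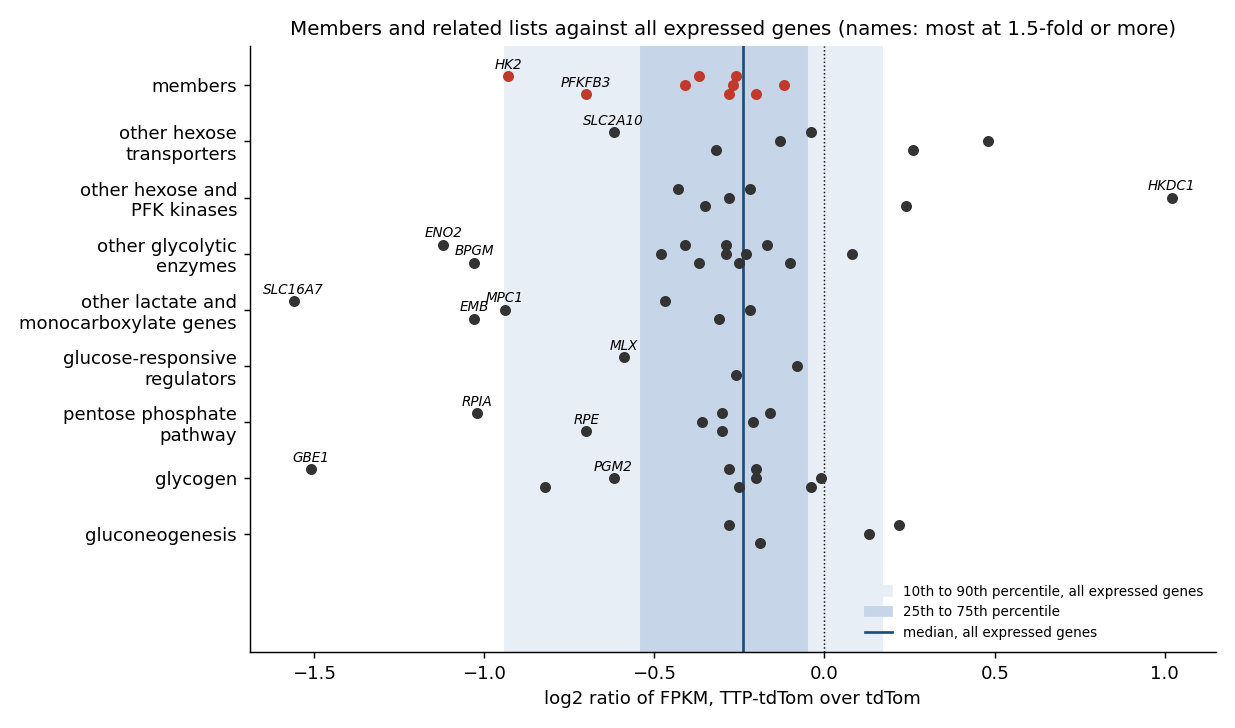
Log2 ratio of FPKM, TTP-tdTom over tdTom, for the expressed genes of the set (red, labelled members) and of the related lists (black), 1 point per gene, with names at most of the points at 1.5-fold or more. The bands span the 10th to 90th (-0.94 to 0.17) and the 25th to 75th (-0.54 to -0.05) percentiles of all 12512 expressed gene symbols, and the line is their median (-0.24); most genes of the set lie near that line, with HK2 (-0.93) close to the lower edge of the outer band.

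Among the branches, the pentose phosphate list had 7 expressed genes with a median of -0.30. RPIA, the ribose 5-phosphate isomerase, was at 8.75 FPKM in tdTom and 4.31 FPKM in TTP-tdTom (-1.02). RPE, an epimerase of the same pathway, was at 13.5 and 8.36 FPKM (-0.70). PGD had the highest ratio, with 43.3 and 38.6 FPKM (-0.16). TKT and TALDO1, which act in the same non-oxidative arm as RPIA and RPE, each had a ratio of -0.30.

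The glycogen list had 9 expressed genes with a median of -0.25, of which 3 were lower. GBE1, the glycogen branching enzyme, was at 18.4 FPKM in tdTom and 6.49 FPKM in TTP-tdTom (-1.51). PGM2, a phosphopentomutase, was at 7.03 and 4.58 FPKM (-0.62). PGM1, the main phosphoglucomutase, had the highest ratio, with 14.3 and 14.2 FPKM (-0.01). The gluconeogenesis list had 4 expressed genes with a median of -0.03, between PC, the pyruvate carboxylase, at 2.65 and 2.19 FPKM (-0.28) and PCK2, the mitochondrial phosphoenolpyruvate carboxykinase, at 7.53 and 8.79 FPKM (0.22).

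The ratio of a gene varied with its level, its base composition and its 3′UTR across the whole table, and the set is read beside these. Of 4451 gene symbols with a mean FPKM of 1 to 5, the level of SLC2A1, HK2, PFKFB2 and PFKFB3, 18.4% were lower by 1.5-fold. The share was 23.9% at 20 to 100 FPKM, the level of HK1, PFKP and SLC16A1. It was 11.5% above 100 FPKM, the level of LDHA and LDHB.

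GC content was taken from the longest coding transcript of each of 11527 expressed genes that could be matched. The median log2 ratio was -0.76 in the decile of genes with the lowest GC content and -0.09 in the decile with the highest, and the share lower by 1.5-fold was 63.6% and 3.38%. Low-GC genes were thus lower far more often. HK2, with 51.2% GC, lay 0.73 below the median of its decile, at the 4.86 percentile of that decile. PFKFB3, with 55.7% GC, lay 0.58 below its median, at the 3.56 percentile.

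SLC2A1, with 54.8% GC, lay 0.27 below the median of its decile, PFKP, with 57.5%, lay 0.17 below, and HK1, with 53.0%, lay 0.11 below. SLC16A1, with 43.5% GC, lay 0.03 below. LDHA (44.0% GC), LDHB (46.5%) and PFKFB2 (43.5%) lay above, by 0.07, 0.06 and 0.22. At their main loci HK2 and PFKFB3 lay farthest below genes of like GC content. With the second HK2 locus added, whose strand is not given, the HK2 ratio was -0.35, beside a decile median of -0.20. The part of base composition in these ratios was not tested.

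**Figure D4:**
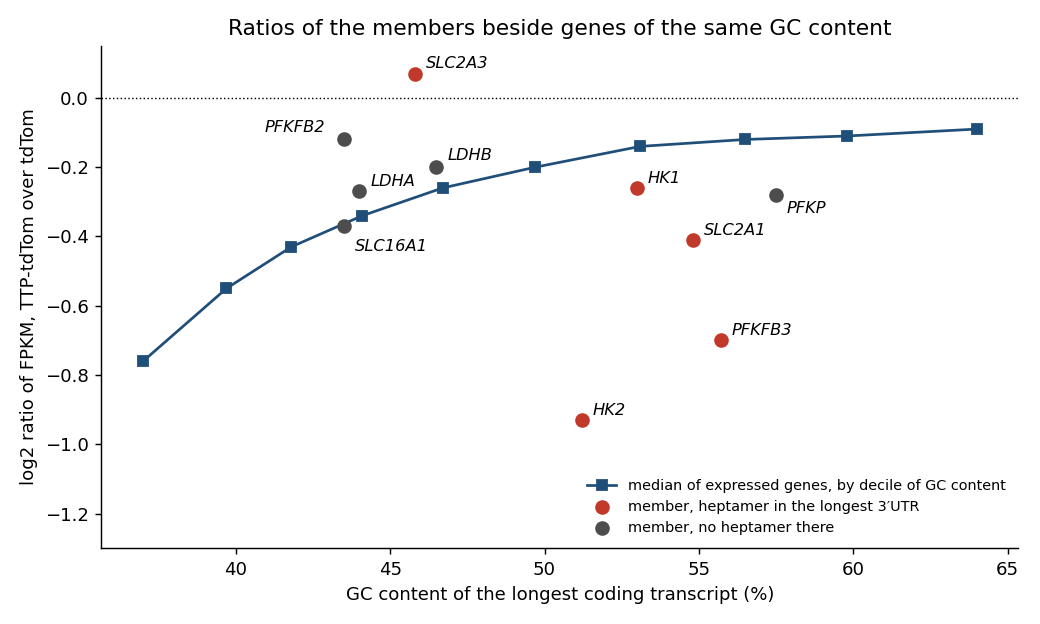
Log2 ratio of FPKM, TTP-tdTom over tdTom, against GC content (%) of the longest coding transcript for the 10 genes, red where the longest 3′UTR holds the heptamer and grey where it does not. Squares joined by a line are medians of expressed genes in deciles of GC content, from -0.76 at the lowest to -0.09 at the highest; HK2 and PFKFB3 lie farthest below the line and SLC2A3, which is under 1 FPKM, lies above it.

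Across all genes, 13.6% of those without the heptamer in the longest 3′UTR were lower by 1.5-fold, 31.9% of those with 1 copy, and 49.3% of those with 2 copies or more. The median length of the 3′UTR was 928, 2065 and 3578 bases in these classes, so copies and length moved together. HK2 and PFKFB3, each with 2 copies, had log2 ratios of -0.93 and -0.70 at their main loci, and HK2 was at -0.35 with both its loci added. SLC2A1 and HK1, each with 1 copy, had ratios of -0.41 and -0.26. SLC2A3, with 2 copies, had a ratio of 0.07 at a level under 1 FPKM. PFKP, PFKFB2, LDHA, LDHB and SLC16A1, without a copy in the longest 3′UTR, had ratios from -0.37 (SLC16A1) to -0.12 (PFKFB2). The ranges of the genes with and without the heptamer overlapped, since HK1 and SLC2A3 lay among or above the genes without it. With its second locus added, whose strand is not given, HK2 also lay among the genes without it.

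Of the 12 other pathway and branch genes that were lower by 1.5-fold, 6 held the heptamer in the longest 3′UTR, and of the 41 that were not, 7 did. ENO2 had 4 copies, BPGM and SLC2A10 had 2 each, and SLC16A7 had 8 in a 3′UTR of 10176 bases. GBE1, RPIA, MPC1, EMB and MLX were among those with none. The median GC content was 43.8% in the 12 genes and 56.8% in the 41, so that base composition differed between them too. With the median of its own GC decile taken off, BPGM was at -0.69, GBE1 at -1.17 and SLC16A7 at -0.80, and 6 of the 12 still differed by 1.5-fold.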

How the data were processed

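RNA-Seq libraries were made with a strand-specific kit from 6 samples, 3 per group, and sequenced in paired-end runs. The authors aligned reads to Hs37D5 (GRCh37) and assembled and compared transcripts. The submitters' processing notes name TopHat2 2.0.13 and Cufflinks 2.2.1. The deposited table gives the authors' FPKM, 1 value per group, at 406165 loci, 30218 of them with a gene symbol. It also holds the authors' own fold changes, test statistics, p-values and q-values, which were not used. FPKM keeps no depth, so no interval is given.

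Ratios were taken without a pseudocount. The design allowed for values per sample and for protein comparisons, which were not run. The rule for named genes took all 10 genes, the lowest and highest ratio of each list, the 3 most abundant pathway genes, genes past 1.5-fold, and the genes just inside and outside it. Other genes named (MPC2, BSG, SLC2A6, SLC2A8, SLC2A11, SLC2A13, SLC2A14, PFKM, PFKFB4, TKT, TALDO1) were chosen after their values were seen. A gene of this rule is not reported here. The genes and lists were chosen with earlier results of these data known. Symbols were matched to GENCODE release 29 (92.1% of expressed genes; older symbols through gene synonyms), and 3′UTRs were built from its exons and stop codons.

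Alternatives were pseudocounts, scalings, locus choices, fold limits and filters on low values. Functions were tested on simulated data. Python 3.11.15, numpy 2.4.6, pandas 2.3.3 and matplotlib 3.10.9 were used.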

Additional observations from a re-analysis of the deposited data

Results flagged for a closer look

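A second locus carrying the HK2 symbol, which the comparison of the 10 genes did not use, was 3.84-fold higher in the TTP-tdTom group, with 0.408 FPKM in tdTom and 1.57 FPKM in TTP-tdTom, while the main HK2 locus was 1.91-fold lower. It was singled out because its signal lay above that of the control group. The table lists the genes of each chromosome in 2 passes. The first held 93.3% plus-strand genes and the second 93.8% minus-strand genes, and the second HK2 locus stood in the second pass although HK2 is a plus-strand gene. The second LDHA locus stood there too, at 0.828 and 0.775 FPKM. The strand of these loci is not given in the table, and their part in the HK2 and LDHA levels was not tested.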

How the results depend on the processing

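Of 104 recomputed results, 83 kept their direction or stayed within 1.5 times the reported count, 12 reversed and 9 counts moved. HK2 and PFKFB3 had ratios below 0 under the 8 alternatives tried for each, from -0.93 to -0.35 and from -0.70 to -0.31 on the log2 scale, and stayed past 1.5-fold under 6 and 4 of them. The reversals came from scaling or centring, and their cause was not tested beyond the shift itself. Scaling to the same upper quartile, a shift of -0.39, gave PFKFB2 0.28, LDHB 0.20, HK1 0.14, LDHA 0.13, PFKP 0.11, SLC16A1 0.02 and a median of 0.11 for the set, and 0 genes were lower by 1.5-fold. Over all genes 8.85% were then lower and 8.98% higher, against 22.7% and 2.37% before. Centring on the median of all genes, a shift of -0.24, gave PFKFB2 0.12 and LDHB 0.04, with 1 gene lower (13.3% of all genes). Centring within deciles of GC content, chosen after seeing the data, gave PFKFB2 0.22, LDHA 0.07 and LDHB 0.06, with 1 gene lower (7.30% of all genes).

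The count of lower genes in the set was 1 with a pseudocount of 1 (18.2% of all genes) and 1 with all loci of a symbol summed (22.1%). It was 4 at the looser fold limit tried, 0 at 2-fold, and 0 among the 5 genes of the set with a mean FPKM of at least 10 (24.1%). Over all genes, 40.5% were lower at that looser limit and 8.30% at 2-fold. The nonamer, also chosen after seeing the data, stood in 3 genes of the set in place of 5. No paired analysis was possible because the table holds 1 value per group, and leaving out replicates was not run for the same reason. The FPKM values used here carry no depth or spread, and the authors' own test columns were not used, so no error is given for small differences such as that of PFKFB2.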

Other observations

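KLK3, which encodes prostate-specific antigen and is known to be low in PC-3 cells, was at 1.12 FPKM in tdTom and 0.681 FPKM in TTP-tdTom. COL1A2, a fibroblast collagen gene, was listed at 0 in tdTom and at 1.38 FPKM in TTP-tdTom, and did not pass the expression filter. Its symbol has 2 loci, and only the chosen locus is given. The other fibroblast markers, at their chosen loci, were COL1A1 at 4.34 and 4.56 FPKM and PDGFRB, below the filter, at 0.458 and 0.699 FPKM.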
